A study of Mus musculus with 4 samples.

Results

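Solute carrier genes, which encode most of the membrane proteins that move ions, amino acids, sugars, metals and metabolites into and out of cells and organelles, were followed in macrophages sorted from mouse periosteum. Members were the genes whose symbol has the form Slc, a family number and the letter a, other than Slc40a1 and Slc11a1, that were listed in both deposited tables with a mean of at least 50 deposited normalised reads over the 4 libraries. Of 14274 genes listed in both tables, 243 had such a symbol, and 144 of them reached that mean while 99 did not. The members came from 44 families and were sorted by what they carry into 18 classes. Members were thus chosen by their mean level over all libraries, and Slc12a2 was singled out with its difference between the libraries known, so its values are a description. Just inside the limit lay Slc25a14, Slc6a8 and Slc25a23 with means of 52.2, 52.9 and 53.3 deposited normalised reads, and just outside it lay Slc39a14, Slc25a26 and Slc5a6 with 49.6, 48.7 and 42.4. A total of 3 members carry a solute carrier symbol and encode no transporter, namely Slc9a3r1, a scaffold protein, Slc7a6os and Slc4a1ap.

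The study asked how gene expression differs between subsets of Cx3cr1-positive macrophages of the periosteum, the connective tissue sheath around bone. All cells came from wild-type male C57BL/6 mice at postnatal day 28, about 4 weeks of age, and were sorted as CD45-positive and Cx3cr1-positive. One sort divided them by angiotensin-converting enzyme at the surface into ACE-negative and ACE-positive cells, and the other divided them by the invariant chain CD74 into CD74-negative and CD74-positive cells. Each of the 4 groups was 1 library, and how many animals each library pooled is not given in the sources used here. With 1 library per group there was no replicate check, no test between groups and no SD. All differences therefore compare single libraries, and in such bulk samples fewer cells of a type and less RNA per cell cannot be told apart.

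The ACE-negative library held 12561196 reads, the ACE-positive library 10944171, the CD74-negative library 7020232 and the CD74-positive library 13282126, so a count of 0 allows up to 3 reads, or 0.456 CPM, in the shallowest. CPM, reads brought to 1 common library size, are the unit used. Values of all 4 libraries are given below in the order ACE-negative, ACE-positive, CD74-negative and CD74-positive. The 2 tables were scaled separately, so levels from different sorts stand side by side without a comparison. Ace stood at 11.6, 1215, 64.5 and 233 CPM and Cd74 at 559, 3709, 455 and 2157 CPM, each higher in the library labelled positive for it, and Cx3cr1 stood at 180, 475, 158 and 283 CPM. Of 16 macrophage and monocyte markers, the ACE sort called 11 higher and 1 lower in positive cells and the CD74 sort 7 higher and 0 lower, by the rule for a call given below. Markers of other blood and bone cells were also present. Neutrophil markers summed to 16748, 11938, 28500 and 14646 CPM and markers of fibroblasts and osteoblasts to 937, 2800, 1483 and 2140 CPM. By the same measure the macrophage and monocyte markers summed to 29927, 21434, 27153 and 20122 CPM, so sums and calls need not move alike. Neutrophil markers called higher and lower numbered 0 and 2 (ACE) and 0 and 3 (CD74) of 12. For fibroblasts and osteoblasts they numbered 5 and 0 (ACE) and 0 and 1 (CD74) of 11. Markers called higher and lower numbered 4 and 0 of 9 (ACE) and 1 and 1 of 10 (CD74) for B cells, 0 and 5 and 0 and 4 of 5 for T and NK cells, 1 and 4 and 0 and 3 of 9 for dendritic cells, and 2 and 0 of 4 in each sort for endothelial cells. The part of these cells in the results was not tested.

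As background, solute carriers use gradients of sodium, protons, potassium or chloride, or exchange one substrate for another, and so depend on the ion pumps that hold those gradients. Macrophages use them to take up amino acids and glucose, to export lactate, to empty lysosomes after a cell has been digested, and to handle the iron, zinc and phosphate that they recover. Slc12a2 is the sodium-potassium-chloride cotransporter of many cell types. It carries these ions inward together, is known for restoring cell volume after shrinkage, and is switched on by kinases of the WNK and SPAK families.

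Of the 5 genes called higher in both sorts, 4 had a promoter among those searched, and 3 of these, picked by hand, are shown. The promoter not shown held none of the motifs marked here. The sequences are from RefSeq on GRCm38.p6, run 5′ to 3′ on the strand of the gene, and end before the deposited gene model starts. Capitals mark a PU.1 box (GAGGAA, read as TTCCTC on the other strand) in Slc7a8 and Slc37a2, an AP-1 site (TGANTCA) in Slc37a2 and an E-box (CACGTG) in Slc13a3. PU.1 is a transcription factor of macrophages, AP-1 a factor of activated cells, and the E-box is read by factors such as TFEB, the regulator of lysosomal genes, and MYC. Slc7a8, a neutral amino acid exchanger, lies at chr14:54722209-54781946 on the minus strand, and the 190 bases shown at chr14:54781947-54782136 lie upstream of it. For Slc37a2, a sugar phosphate exchanger, 250 bases at chr9:37255739-37255988 are shown, and for Slc13a3, a carrier of dicarboxylates, 217 bases at chr2:165473231-165473447, both on the minus strand.
Slc7a8: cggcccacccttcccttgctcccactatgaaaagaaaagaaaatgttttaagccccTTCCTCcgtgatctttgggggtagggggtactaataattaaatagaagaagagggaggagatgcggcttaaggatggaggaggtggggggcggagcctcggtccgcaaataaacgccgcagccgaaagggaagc
Slc37a2: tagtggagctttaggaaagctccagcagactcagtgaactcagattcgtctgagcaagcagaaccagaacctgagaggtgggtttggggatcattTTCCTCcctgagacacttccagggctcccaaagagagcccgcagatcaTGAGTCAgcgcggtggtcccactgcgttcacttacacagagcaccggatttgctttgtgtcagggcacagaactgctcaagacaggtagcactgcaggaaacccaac
Slc13a3: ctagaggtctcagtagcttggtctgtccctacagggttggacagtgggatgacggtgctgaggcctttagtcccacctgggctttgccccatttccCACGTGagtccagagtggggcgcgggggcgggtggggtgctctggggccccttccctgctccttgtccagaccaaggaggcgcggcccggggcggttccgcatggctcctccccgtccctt

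The PU.1 box lay from -194 to -189 in Slc7a8 and from -155 to -150 in Slc37a2, counted from the RefSeq start. In Slc37a2 the AP-1 site lay from -107 to -101, and in Slc13a3 the E-box lay from -154 to -149. On both strands of the 250 bases before the start, the PU.1 box was in 23.3%, the AP-1 site in 6.75% and the E-box in 6.02% of 32817 promoters. Of the 109 members with a promoter in the table, 24 (22%) held the E-box, against 821 of 7908 (10.4%) of all genes with a deposited mean of at least 50. Of the 20 members that were called in at least 1 sort and have a promoter in the table, 7 held it, namely Slc12a7, Slc13a3, Slc20a1, Slc25a13, Slc36a1, Slc38a5 and Slc41a3, while 3 of the 20 held the PU.1 box and 2 the AP-1 site. The PU.1 box was in 26 of the 109 members (23.9%) against 26.5% of those genes. The ATF4 composite element (TGATGNAA) was in 5 members and the NR4A site (AAAGGTCA) in 0. These matches describe letters in a window, and base composition of the promoters was not matched between the sets. Slc12a2 and Slc6a8 are named only.

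Most solute carriers did not differ between the libraries of a sort by the size asked for, and nearly all that did were higher in the positive library. A call needed a mean of 5 CPM or more, a log2 ratio of CPM + 1 of 1 or more in either direction, and a counting interval of the fold that left out 1. In the ACE sort 16 of 141 members tested were called higher in the positive library, which is 11.3%, against 9.46% of all genes tested. A single member, Slc25a13, was called lower, which is 0.709% of members, against 8.62% of all genes. In the CD74 sort 16 of 142 members were called higher, again 11.3%, against 9.08% of all genes, and 0 were called lower, against 7.73%. The shares called higher were thus near those of all genes in both sorts. Any gene under 5 CPM in the negative library was tested only through its positive library, so it could not be called lower. Among the ACE calls these were Slc12a2, Slc13a3, Slc15a2, Slc38a5, Slc38a6 and Slc6a8, and Slc13a3 was so placed in the CD74 sort too. The shares of all genes are also the background for the counts of calls in every class and list. The median log2 ratio of the members was 0.13 in the ACE sort and 0.20 in the CD74 sort, where that of all genes tested was -0.08 and -0.03. Members above 0 numbered 92 of 141 and 87 of 142, against 4389 of 9656 (ACE) and 4686 of 9719 (CD74) of all genes tested. The members tested had a median gene model length of 5210 bases in the ACE sort, against 4653 for all genes, and log2 ratios moved with length. Centred on genes of like length, the members' medians were 0.19 and 0.20. The members not tested for a low mean were Slc18a2, Slc25a14 and Slc25a23 in the ACE sort and Slc25a14 and Slc6a8 in the CD74 sort.

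**Figure D1:**
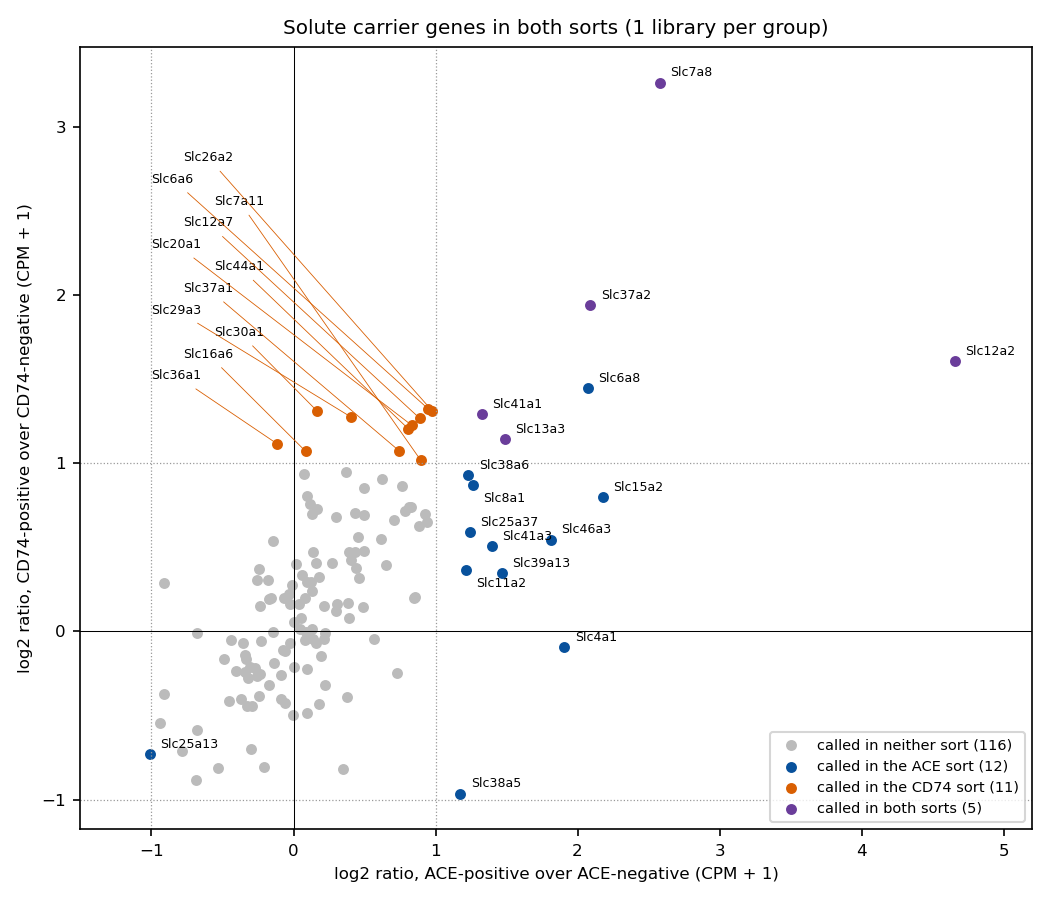
Log2 ratio of positive over negative in the ACE sort (horizontal axis) against that in the CD74 sort (vertical axis), both of CPM + 1, for the 144 members, coloured by the sort in which they were called. Most points lie between -1 and 1 on both axes, and Slc12a2 lies farthest to the right at 4.66 while Slc7a8 lies highest at 3.27.

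The genes called higher in both sorts were Slc12a2, Slc13a3, Slc37a2, Slc41a1 and Slc7a8, which is 3.57% of the 140 members tested in both, against 4.8% of all genes tested in both. These 5 genes carry salt, dicarboxylates, sugar phosphates, magnesium and neutral amino acids, so no substrate was shared among them. At a pseudocount of 5 CPM Slc13a3 lost its call in both sorts and Slc41a1 in the CD74 sort, which left 3 genes, and with plain totals of reads as library sizes 11 were called in both. Among the members tested in both, 10 were called higher in the ACE sort and not in the CD74 sort, which is 7.14%, against 4.17% of all genes tested in both. Another 11 were called higher in the CD74 sort and not in the ACE sort, which is 7.86%, against 4.24% of all genes. Slc6a8, called in the ACE sort, was not tested in the CD74 sort. A call in one sort and not in the other does not show that the sorts differ, which was not tested. Across the 140 members the log2 ratios of the sorts had a Pearson r of 0.64 and a Spearman rho of 0.66, and r was 0.60 without Slc12a2 and Slc7a8. Over 9533 genes r was 0.79. These are correlations across genes, which are not independent replicates and share the libraries.

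Slc12a2 had the highest ratio of all members in the ACE sort. This gene (ENSMUSG00000024597, chromosome 18, bases 57878678 to 57946821 on the plus strand of GRCm38) drew 34, 1100, 60 and 423 reads, or 2.84, 95.9, 9.12 and 29.8 CPM. In each sort the positive library was the higher one, and the gap was wider in the ACE sort. The fold was 33.8 (95% counting interval 24.0 to 49.1) in the ACE sort and 3.27 (2.49 to 4.36) in the CD74 sort, which are log2 ratios of 4.66 and 1.61. Centred on genes of like length these were 4.27 and 1.16. The fold in the ACE sort was 10.3 times that in the CD74 sort, with a counting interval of 6.69 to 16.0, and this difference has no replicate check. In the authors' deposited tables the fold of Slc12a2 was 33.6 in the ACE comparison and 3.29 in the CD74 comparison. The p-values deposited beside these folds compare 1 library with 1 library. They rest on no replicates and are not given here.

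The other cation-chloride cotransporters differed far less than Slc12a2. Slc12a7, which carries potassium and chloride outward, stood at 13.7, 26.2, 10.9 and 27.8 CPM and was called higher in the CD74 sort with a fold of 2.54 (1.97 to 3.31), where its length-centred log2 ratio was 0.71. Slc12a4, a carrier of the same kind, stood at 15.3, 15.3, 17.9 and 12.4 CPM. Slc12a9, a family member of unsettled transport function, stood at 62.8, 63.6, 51.7 and 68.7 CPM and was the highest of the class per length. Per kilobase of exon length, Slc12a2 made up 1.09% of the class in the ACE-negative and 22.6% in the ACE-positive library, and 3.58% and 8.38% in the CD74 sort. Its share of the class was thus larger in the positive library of each sort.

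Regulators and pumps around Slc12a2 were taken from lists. Of all genes tested, 9.46% (ACE) and 9.08% (CD74) were called higher. Of 6 WNK and SPAK pathway genes tested, 2 were called higher in the ACE sort and 1 in the CD74 sort, and 0 were lower in either. Wnk1, a chloride-sensing kinase, stood at 122, 278, 114 and 358 CPM and was called in both. Centred on genes of like length its log2 ratios were 0.55 (ACE) and 0.91 (CD74), under the size of a call. Stk39, the kinase SPAK, stood at 3.0, 7.59, 8.97 and 9.17 CPM and was called in the ACE sort alone. Among sodium pump subunits 1 of 6 tested, Atp1b2, was called higher in the ACE sort at 1.08 and 9.68 CPM, and 0 of 5 in the CD74 sort. Of 16 potassium and chloride channels of volume control tested, 4 were called higher and 0 lower in each sort. Kcnj10, an inward rectifier potassium channel, was called in both, at 1.84, 26.1, 0.912 and 27.5 CPM. The medians of these channels were 0.72 and 0.71 on the log2 scale, and 0.34 and 0.43 centred by length.

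The genes most like Slc12a2 were found by the largest difference in log2 ratio over both sorts, among 9779 genes with a deposited mean of at least 50. The nearest was Adgre4, an adhesion receptor, with a difference of 0.25. Treml4 followed with 0.31, Pparg, a nuclear receptor, with 0.33, Fabp4, a fatty acid binding protein, with 0.35, and Fcgr4, an antibody receptor, with 0.49. Fabp4 was also near Slc12a2 in CPM, at 2.92, 76.6, 7.30 and 26.7. None of these 5 is a solute carrier, and the measure rests on 2 ratios from 4 libraries.

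Amino acid and peptide carriers held 25 members, and 5 were called higher in the ACE sort and 4 of 24 tested in the CD74 sort, with 0 lower in either. Of all genes tested, 9.46% (ACE) and 9.08% (CD74) were called higher. The class holds few genes, and its counts were not tested against these shares. The median log2 ratios of the class were 0.50 and 0.52, and 0.37 and 0.35 centred by length. Summed per kilobase, the class stood at 208, 286, 202 and 304 CPM per kb, the higher value in each sort being that of the positive library.

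Slc7a8 (ENSMUSG00000022180) stood at 7.84, 51.8, 5.17 and 58.3 CPM, with the positive library the higher one in each sort. Its fold was 6.60 (5.30 to 8.30) in the ACE sort and 11.3 (8.01 to 16.4) in the CD74 sort, the highest of the members in the latter. Its fold in the authors' deposited tables was 6.57 for ACE and 11.3 for CD74. Slc7a8 is one of the light chains that reach the surface only when paired with the heavy chain Slc3a2. Slc3a2 itself stood at 116, 164, 117 and 163 CPM with folds of 1.41 and 1.40, called in neither sort. Slc7a5, the light chain known for leucine uptake in dividing cells, stood at 36.3, 32.8, 42.4 and 42.3 CPM. Slc7a7 and Slc7a6, light chains that exchange cationic for neutral amino acids, stood at 30.1, 41.2, 32.7 and 42.7 CPM and at 18.4, 20.2, 19.9 and 23.7 CPM. Per length, Slc7a8 was at 0.160 of Slc7a5 in the ACE-negative and 1.17 in the ACE-positive library, and at 0.0903 and 1.02 in the CD74 sort. Of the 5 light chains Slc7a5, Slc7a6, Slc7a7, Slc7a8 and Slc7a11, its share per length was 6.22%, 27.7%, 3.78% and 27.5%. The share of Slc7a8 among the light chains was thus larger in the positive library of each sort.

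**Figure D2:**
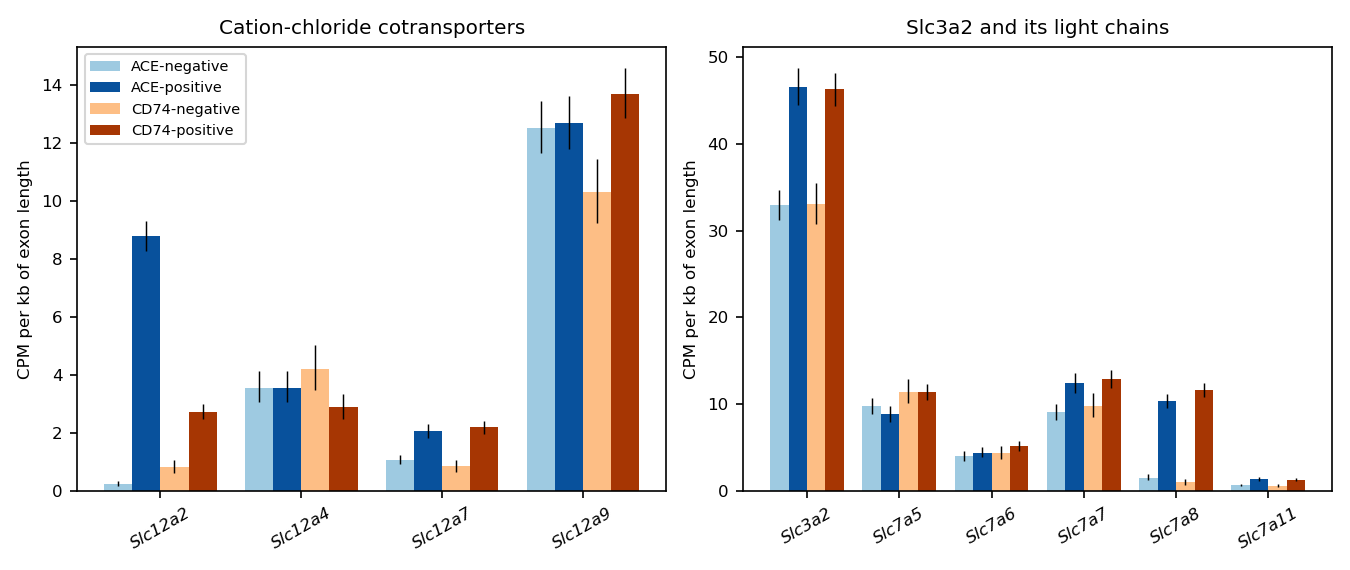
Level per kilobase of exon length (CPM per kb, vertical axes from 0) in the 4 libraries, 1 bar each, for 4 of the cation-chloride cotransporters (left) and for Slc3a2 with its light chains (right), with 95% Poisson intervals for counting error. Slc12a2 reaches 8.78 CPM per kb in the ACE-positive library from 0.260 in the ACE-negative one, and Slc7a8 exceeds Slc7a5 in both positive libraries.

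Other carriers of amino acids were called in one sort. Slc7a11, the cystine-glutamate exchanger, stood at 9.84, 19.2, 8.51 and 18.3 CPM and was called higher in the CD74 sort with a fold of 2.15 (1.60 to 2.92), and its length-centred log2 ratio there was 0.39. Slc6a6, the taurine transporter, stood at 117, 227, 107 and 269 CPM and was called in the CD74 sort with a fold of 2.52 (2.33 to 2.74), or a length-centred log2 ratio of 0.94. In the ACE sort the positive library was higher by 1.93, without a call. Taurine is an osmolyte, and a link of its transporter to cell volume was not tested. Slc6a8, the creatine transporter, stood at 1.42, 9.15, 1.98 and 7.13 CPM, with a fold of 6.45 (3.85 to 11.5) in the ACE sort. There it reached the mean of 5 CPM through its positive library alone, so it could not have been called lower. Its CD74 fold of 3.61 (2.02 to 7.01) had no call because the mean lay under 5 CPM. Slc15a2, a proton-coupled peptide carrier, stood at 3.92, 21.3, 8.82 and 16.1 CPM and was called in the ACE sort at 5.43 (3.96 to 7.58). The lysosomal peptide and histidine carriers Slc15a3 and Slc15a4 stood at 92.5, 131, 73.0 and 133 CPM and at 73.3, 97.7, 53.2 and 71.7 CPM, called in neither. Of the exon bases of Slc15a3, 28.1% lie opposite Tmem132a. Slc36a1, a proton-coupled amino acid carrier of lysosomes, was called in the CD74 sort at 34.7 and 76.3 CPM, with a fold of 2.20 (1.91 to 2.55), and stood at 41.3 and 38.1 CPM in the ACE sort. Slc38a9, the lysosomal arginine sensor of the mTORC1 pathway, stood at 26.4, 51.6, 27.7 and 44.0 CPM and was called in neither. Slc38a6, a member of a family of amino acid carriers, was called in the ACE sort at 3.92 and 10.6 CPM, a fold of 2.69 (1.91 to 3.85), and stood at 5.62 and 11.6 CPM in the CD74 sort.

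Slc38a5, a glutamine carrier, stood at 2.92, 7.85, 7.14 and 3.17 CPM. Its fold was 2.69 (1.80 to 4.09) in the ACE sort, a call, and in the CD74 sort the negative library was higher by 2.25 (1.46 to 3.47), which fell short of a log2 ratio of -1. The sorts thus lay in opposite directions for it. Per length the most abundant genes of the class were Slc3a2 at 39.7 and Slc1a5, a glutamine and neutral amino acid exchanger, at 23.2 CPM per kb on average over the libraries. Slc1a5 stood at 92.6, 96.0, 97.0 and 102 CPM, within 1.06-fold in both sorts.

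Genes that respond to amino acid shortage were read beside these carriers. Of 13 genes tested from the list of the amino acid response, which holds the transcription factor Atf4 and genes known to respond to it, 1 was called higher and 3 lower in the ACE sort, and 0 higher and 4 lower in the CD74 sort. Those lower were the serine synthesis genes Phgdh, at 95.5, 26.7, 135 and 39.4 CPM, Psat1, at 189, 53.0, 199 and 82.9 CPM, and Psph, at 13.2, 5.93, 18.1 and 7.20 CPM, in both sorts, and in the CD74 sort the serine-to-glycine enzyme Shmt2. Centred on genes of like length the ACE log2 ratio of Psph was -0.91, short of the size of a call. Of all genes tested, 8.62% (ACE) and 7.73% (CD74) were called lower. Nupr1, a stress-induced cofactor, was higher in the ACE sort at 48.9 and 103 CPM. Of 19 genes of lysosomal nutrient sensing tested, 1 was higher and 1 lower in the ACE sort and 1 higher and 2 lower in the CD74 sort. Lamtor4, a subunit of the complex that anchors mTORC1 to the lysosome, was lower in both, at 187, 76.5, 185 and 73.6 CPM. Centred on genes of like length its log2 ratios were -0.60 (ACE) and -0.48 (CD74), short of the size of a call.

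Among 11 carriers of sugars and sugar phosphates, 1 was called higher in the ACE sort and 2 in the CD74 sort, with 0 lower. Slc37a2 stood at 11.0, 50.1, 9.58 and 39.6 CPM. The positive library was the higher one in each sort, with folds of 4.55 (3.76 to 5.54) and 4.14 (3.19 to 5.46). It exchanges sugar phosphates for phosphate and is known from macrophages and osteoclasts. Of 4 osteoclast markers tested, 3 were called higher in the ACE sort and 2 in the CD74 sort, and the list summed to 338, 797, 592 and 658 CPM, and the part of osteoclast RNA in these values was not tested. Slc37a1, its relative, stood at 12.3, 21.2, 8.21 and 18.4 CPM and was called in the CD74 sort at 2.24 (1.67 to 3.07), with a length-centred log2 ratio of 0.59. Slc37a4, the glucose 6-phosphate carrier of the endoplasmic reticulum, lay the other way at 27.9, 17.0, 27.4 and 17.9 CPM, higher in the negative libraries by 1.64 (1.37 to 1.97) and 1.53 (1.25 to 1.86), without a call. Per length Slc37a2 was at 0.170 of Slc37a4 in the ACE-negative and 1.27 in the ACE-positive library, and at 0.151 and 0.952 in the CD74 sort. Glucose carriers differed little. Slc2a1 stood at 28.5, 32.7, 35.1 and 31.6 CPM, Slc2a3 at 74.7, 91.9, 106 and 116 CPM and Slc2a6, the highest of the class per length, at 106, 102, 102 and 75.8 CPM. Slc50a1, a sugar efflux carrier, was next per length at 26.9, 35.2, 29.0 and 21.9 CPM.

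Enzymes of glycolysis were counted beside the glucose carriers. Of the hypoxia and glycolysis list 1 of 17 tested was called higher and 1 lower in the ACE sort, and 1 and 1 of 18 in the CD74 sort. The list as a whole lay toward the negative libraries, with median log2 ratios of -0.37 (ACE) and -0.42 (CD74). Those of all genes tested were -0.08 and -0.03. Centred by length the medians of the list were -0.34 and -0.25, and it summed to 5770, 3524, 5963 and 3882 CPM. Pfkfb3, an activator of glycolysis, was higher in the ACE sort at 41.3 and 98.6 CPM, and Hk2, a hexokinase, was higher in the CD74 sort at 51.2 and 130 CPM. Lower were Pkm, pyruvate kinase, in the ACE sort and Ldha, lactate dehydrogenase, in the CD74 sort at 661 and 306 CPM. Centred on genes of like length their log2 ratios there were -0.96 (Pkm) and -0.85 (Ldha), short of the size of a call.

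Of 6 carriers of lactate and other carboxylates, 1 was called higher in the ACE sort and 2 in the CD74 sort. Slc13a3 stood at 3.09, 10.5, 3.19 and 8.25 CPM with folds of 3.39 (2.33 to 5.04) and 2.59 (1.62 to 4.33), so the negative libraries held few reads and the intervals are wide, and both calls were lost at a pseudocount of 5 CPM. Slc16a6, of the monocarboxylate family, stood at 22.3, 23.7, 19.2 and 41.3 CPM and was called in the CD74 sort at 2.16 (1.78 to 2.64). Of its exon bases 21.5% lie opposite Amz2, and reads of the genes cannot be told apart without strand. The lactate carriers were the most abundant of the class per length. Slc16a3, the lactate exporter of glycolytic cells, stood at 109, 124, 142 and 105 CPM and Slc16a1, the widespread lactate and pyruvate carrier, at 27.2, 31.8, 39.2 and 31.3 CPM. The partner proteins of these carriers were in the chaperone list, in which 1 of 10 tested was called higher and 1 lower in the ACE sort and 0 of 9 in the CD74 sort. Emb, embigin, a partner of monocarboxylate carriers, was the lower one at 780, 306, 750 and 479 CPM. Chp2, a cofactor of sodium-proton exchangers, was the higher one at 2.0, 8.28, 0.152 and 7.90 CPM, the third value being a single read.

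Anions and phosphate came next. Slc20a1, a sodium-phosphate cotransporter, stood at 47.1, 84.7, 43.0 and 102 CPM and was called in the CD74 sort at 2.37 (2.09 to 2.71), 1 of 4 in its class, and its ACE fold was 1.80 (1.62 to 2.0). Slc17a5, the sialic acid exporter of lysosomes, stood at 10.1, 18.5, 10.03 and 17.4 CPM, higher in both positive libraries by 1.83 and 1.74, and was called in neither. Xpr1, the phosphate exporter, which is outside the symbol pattern, was called higher in both at 46.5, 110, 53.8 and 115 CPM. Its length-centred log2 ratios were 0.62 (ACE) and 0.36 (CD74), under the size of a call. Of 6 carriers of bicarbonate, sulfate and other anions, Slc26a2, a sulfate carrier, was called in the CD74 sort at 15 and 38.9 CPM, a fold of 2.58 (2.08 to 3.23) and a length-centred log2 ratio of 0.76. In the ACE sort it stood at 17.2 and 34.8 CPM. Slc4a2, an anion exchanger of most tissues, stood at 44.7, 43.9, 45.0 and 50.5 CPM.

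Slc4a1, the anion exchanger of red blood cells, was the member of that class called in the ACE sort. It stood at 20.3, 78.8, 69.6 and 65.3 CPM, with a fold of 3.89 (3.37 to 4.50) in the ACE sort and 0.937 (0.837 to 1.05) in the CD74 sort. The libraries of the ACE sort were thus apart and those of the CD74 sort were not. Erythroid markers moved with it in the ACE sort. Among 10 tested in the ACE sort the positive library was called higher for 7 and lower for 0, and of 11 tested in the CD74 sort 0 were called higher and 4 lower, and the list of 12 summed to 480, 963, 1468 and 640 CPM with Ahsp not listed. Alas2, the heme synthesis enzyme of red cells, stood at 10.3, 36.8, 38.9 and 23.1 CPM. Other members known from red cell precursors were set beside them after their values were seen. Slc25a37, the iron carrier mitoferrin of mitochondria, stood at 34.0, 81.6, 46.2 and 70.2 CPM and was called in the ACE sort at 2.40 (2.14 to 2.71). Slc43a1, an amino acid carrier, stood at 5.51, 8.63, 10.6 and 10.3 CPM and Slc14a1, the urea carrier of red cells, at 14.4, 15.5, 14.4 and 12.2 CPM, called in neither. Slc38a5 followed the erythroid markers in direction in both sorts, higher in the ACE-positive and lower in the CD74-positive library. The part of red cell RNA in these results was not tested.

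**Figure D3:**
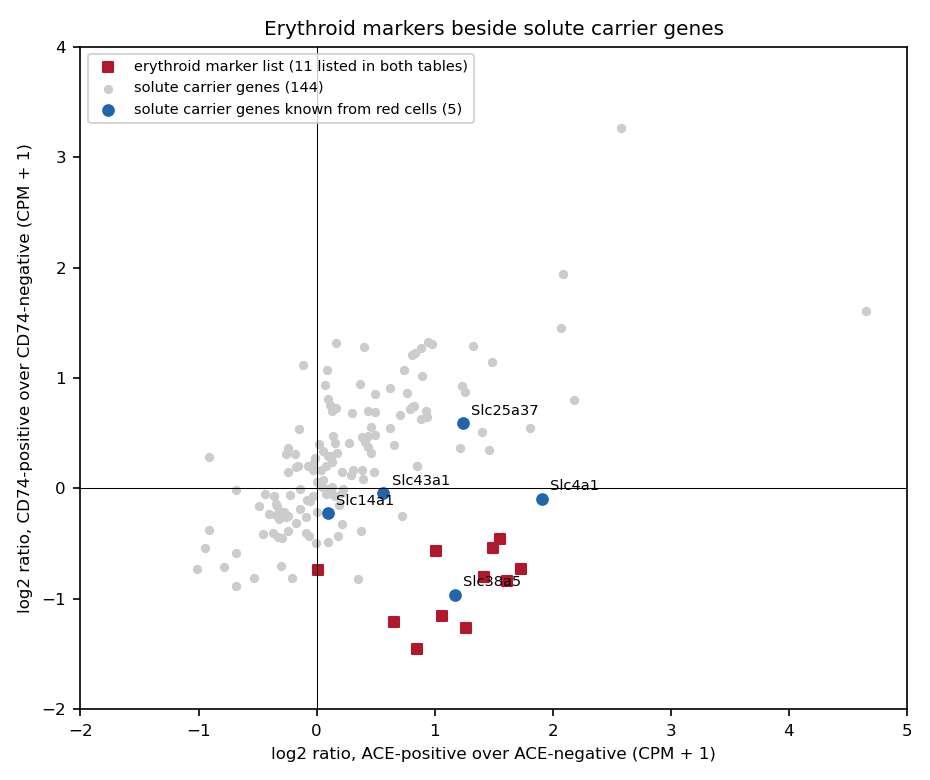
Log2 ratio of CPM + 1, positive over negative, in the ACE sort (horizontal axis) against the CD74 sort (vertical axis) for 11 erythroid markers (squares), all members (grey) and the 5 members known from red cells (named points). The markers lie to the right of or at 0 in the ACE sort and below 0 in the CD74 sort, and Slc38a5 is the named member that lies among them.

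In the class of heme and of metals other than zinc, the members called carry magnesium or iron. Slc41a1, a magnesium carrier of the plasma membrane, stood at 10.3, 27.5, 7.45 and 19.7 CPM. The positive library was again the higher one in each sort, with folds of 2.65 (2.15 to 3.30) and 2.64 (1.95 to 3.66), the latter without a call at a pseudocount of 5 CPM. Slc41a3, a magnesium carrier of the same family, was called in the ACE sort at 13.8 and 37.9 CPM, a fold of 2.76 (2.30 to 3.32), and stood at 13.4 and 19.5 CPM in the CD74 sort. Slc11a2, which carries ferrous iron out of endosomes, was called in the ACE sort at 9.43 and 23.2 CPM, a fold of 2.46 (1.97 to 3.09), and stood at 15.5 and 20.2 CPM in the CD74 sort. It moved in the ACE sort with the erythroid markers above, whose part was not tested. Per length, Slc48a1, a heme carrier of lysosomes, and Slc31a1, the copper importer, led this class of 7 at 76.3, 83.9, 80.6 and 78.0 CPM and at 73.4, 57.7, 76.9 and 69.7 CPM. Slc49a4 lay the other way at 55.5, 28.4, 58.1 and 39.6 CPM, higher in the ACE-negative library by 1.95 (1.71 to 2.24), just short of a call.

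Of 14 zinc carriers 1 was called in each sort. Slc39a13, a zinc carrier of the secretory pathway known from connective tissue, was called in the ACE sort at 7.26 and 21.8 CPM, a fold of 3.0 (2.34 to 3.88), and stood at 11.1 and 14.4 CPM in the CD74 sort. In the ACE sort 5 of 11 fibroblast and osteoblast markers tested were called higher and 0 lower, and in the CD74 sort 0 higher and 1 lower, and their part in its values was not tested. Slc30a1, the zinc exporter of the plasma membrane, was called in the CD74 sort at 11.9 and 31.0 CPM, a fold of 2.61 (2.05 to 3.37), and stood at 18.3 and 20.6 CPM in the ACE sort. Slc39a1, a zinc importer, and Slc39a11 were the most abundant of the class per length, at 52.3, 55.4, 42.9 and 49.5 CPM and at 44.4, 35.4, 43.6 and 35.8 CPM. Mt1, a metallothionein that responds to zinc, and Mtf1, the transcription factor that drives such genes, were the 2 genes of their list tested and were called in neither sort.

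Calcium and proton exchange was carried by few members. Slc8a1, the sodium-calcium exchanger and the single member of its class, was called in the ACE sort at 49.6 and 120 CPM, a fold of 2.42 (2.20 to 2.67), and stood at 46.8 and 86.4 CPM in the CD74 sort. Centred on genes of like length its ACE log2 ratio was 0.65 in place of 1.26. Of the 5 sodium-proton exchangers 0 were called in either sort. Slc9a9, an exchanger of endosomes, stood at 27.8, 44.3, 32.5 and 43.1 CPM. Slc9b2, a relative outside the symbol pattern, was called in the ACE sort at 2.59 and 10.4 CPM.

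Carriers of nucleosides held 4 members. Slc29a3, which exports nucleosides from lysosomes, stood at 87.9, 117, 68.4 and 167 CPM and was called in the CD74 sort at 2.44 (2.21 to 2.71). It was also the most abundant of its class per length, ahead of Slc43a3, a nucleobase carrier, at 60.9, 49.5, 84.1 and 61.5 CPM. Slc46a3, a lysosomal carrier of the folate transporter family, was called in the ACE sort at 20.3 and 73.7 CPM, a fold of 3.63 (3.15 to 4.21), and stood at 26.1 and 38.7 CPM in the CD74 sort. It was the highest per length of 8 carriers of organic ions, bile acids and amines, of which 1 was called in the ACE sort and 0 in the CD74 sort. Slc22a4, the ergothioneine carrier, stood at 12.5, 6.19, 6.99 and 8.75 CPM, 2.02-fold (1.51 to 2.72) higher in the ACE-negative library, and was not called on the scale of CPM + 1. Slc18a2, which loads amines into vesicles, stood at 3.59, 4.19, 7.30 and 9.38 CPM. Basophil and mast cell markers were higher in the CD74-positive library for 5 of 6 tested and lower in the ACE-positive library for 3 of 6, and they summed to 243, 126, 185 and 787 CPM, and their part in these values was not tested. Slc10a3, second in the class per length, stood at 18.3, 20.5, 15.8 and 15 CPM, and 12.8% of its exon bases lie in Ubl4a on the same strand.

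Vitamin and choline carriers held 6 members. Slc44a1, a choline carrier, was called in the CD74 sort at 14.9 and 35.7 CPM, a fold of 2.40 (1.93 to 3.01) and a length-centred log2 ratio just under 1 at 0.99, and stood at 16.0 and 28.8 CPM in the ACE sort. Slc44a2, a related gene and the most abundant of the class per length, stood at 229, 414, 250 and 289 CPM and was called in neither. Slc23a2, a vitamin C carrier, came second per length at 25.7, 27.6, 21.3 and 38.0 CPM. Slc52a2, a riboflavin carrier, was higher in the CD74-negative library by 1.82 (1.44 to 2.29), at 17.4, 15, 21.1 and 11.6 CPM. Of 6 nucleotide sugar and acetyl-CoA carriers of the Golgi and endoplasmic reticulum 0 were called in either sort, and their medians were -0.11 and 0.03 on the log2 scale. Slc35a4 stood at 64.4, 68.5, 70.5 and 70.4 CPM and Slc35a3 at 56.3, 56.4, 59.3 and 61.7 CPM. Both fatty acid carriers, Slc27a4 at 54.4, 49.3, 71.1 and 62.3 CPM and Slc27a1 at 8.01, 15.3, 11.9 and 13.8 CPM, were called in neither. Slc66a2, placed in no class, stood at 76.1, 63.6, 62.6 and 52.1 CPM. Among the genes that encode no transporter, Slc9a3r1 stood at 129, 101, 126 and 107 CPM and Slc7a6os at 36.4, 25.6, 29.6 and 26.4 CPM, and 0 of the 3 were called.

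**Figure D4:**
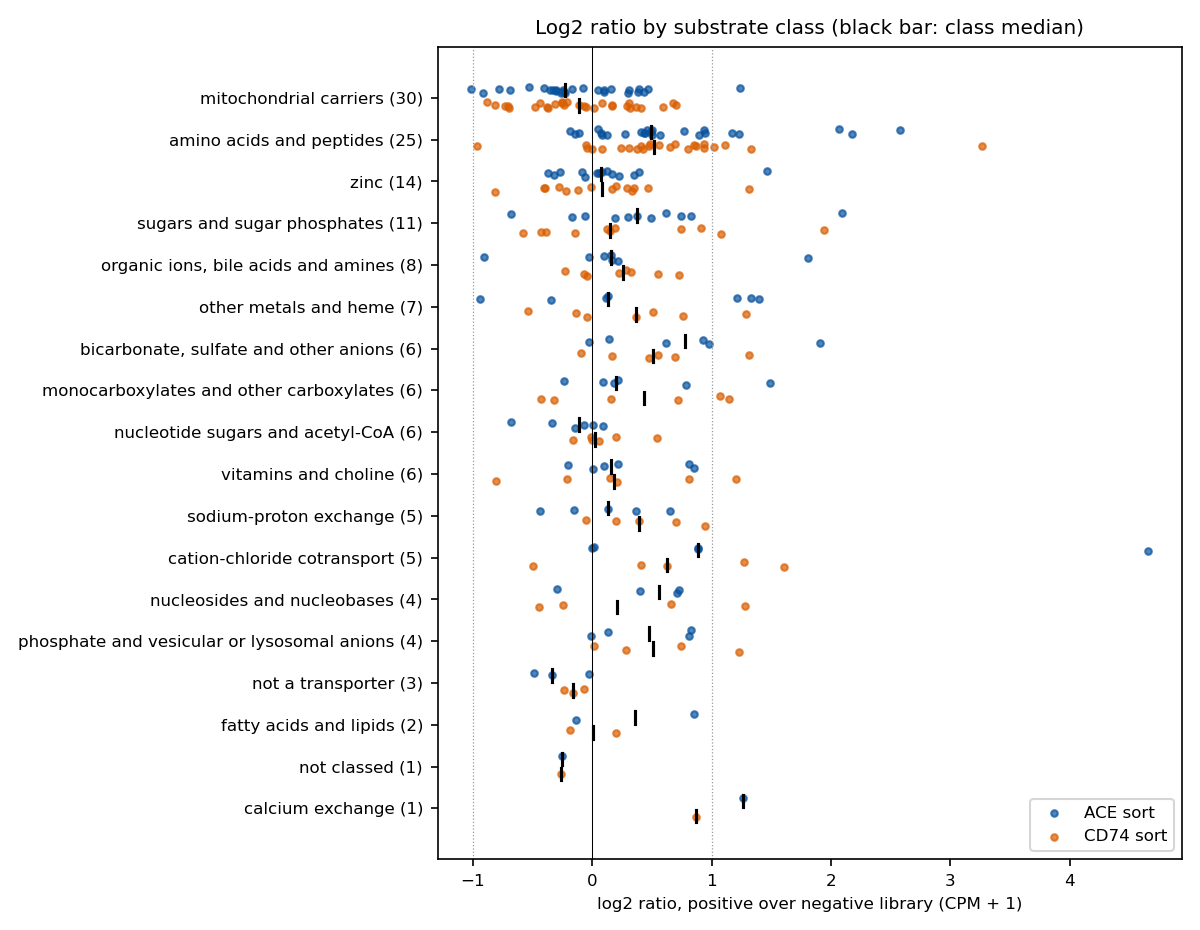
Log2 ratio of positive over negative (horizontal axis) for every member tested, by substrate class (vertical axis, number of members in parentheses), in the ACE sort (blue) and the CD74 sort (orange), with black bars at the class medians and dotted lines at -1 and 1. The amino acid class has medians of 0.50 and 0.52, and the mitochondrial carriers lie lowest among classes of more than 6 members with medians of -0.23 and -0.11.

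Mitochondrial carriers, the family of inner membrane exchangers for nucleotides, phosphate and metabolites, formed the largest class with 30 members. In the ACE sort 1 of 28 tested was called higher, the Slc25a37 described above, and 1 lower, and in the CD74 sort 0 of 29 were called. Their medians were -0.23 and -0.11 on the log2 scale, and both were 0.01 centred on genes of like length. Slc25a13, which exchanges aspartate for glutamate in the malate-aspartate shuttle, was the one called lower, at 26.5, 12.6, 32.7 and 19.3 CPM. It was 2.10-fold (1.72 to 2.57) higher in the ACE-negative library, a log2 ratio of -1.01 and of -0.77 centred by length, and 1.69-fold (1.41 to 2.03) higher in the CD74-negative one. Slc25a12, the other carrier of that exchange, stood at 75.6, 63.0, 62.9 and 78.1 CPM. Slc25a10, a dicarboxylate carrier, was 1.94-fold (1.61 to 2.34) higher in the ACE-negative library and Slc25a20, the carnitine-acylcarnitine carrier, 1.46-fold and 1.78-fold higher in the negative libraries, without calls.

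Per length the mitochondrial carriers made up the largest share of the members' summed level. The class summed to 932, 689, 967 and 670 CPM per kb, which was 52.3%, 39.8%, 52.7% and 39.5% of all members. Slc25a5, the main exchanger of ADP for ATP in dividing cells, was the most abundant of all members per length at a mean of 391 CPM per kb and stood at 794, 493, 838 and 453 CPM. It was higher in the negative libraries by 1.61 (1.56 to 1.66) and 1.85 (1.78 to 1.92), and by a length-centred log2 ratio of -0.13 and -0.20 it lay near genes as short as itself. Slc25a4, a related exchanger of ADP for ATP, stood at 120, 69.1, 121 and 73.7 CPM. Any reads that match both genes would make both values uncertain, which was not tested. Slc25a3, the phosphate carrier, was second per length at 72.6 CPM per kb and stood at 426, 378, 448 and 360 CPM. Without Slc25a3 and Slc25a5 the class summed to 373, 321, 377 and 331 CPM per kb. Mtch1, a related outer membrane protein outside the symbol pattern, was called lower in both sorts at 295, 125, 293 and 132 CPM. All members together summed to 1783, 1732, 1833 and 1697 CPM per kb.

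**Figure D5:**
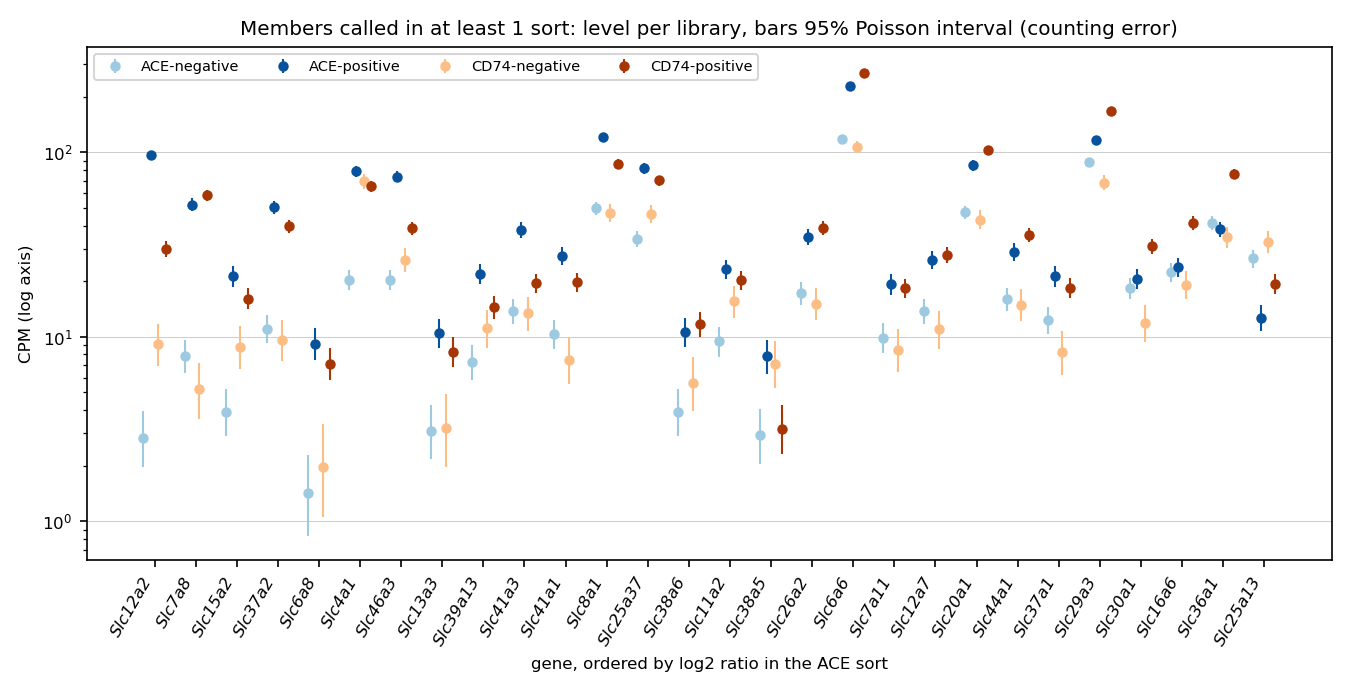
CPM (vertical log axis) of the 28 members called in at least 1 sort, ordered by their ACE log2 ratio, with 1 point per library and bars for the 95% Poisson interval, which covers counting error only. Slc12a2 spans 2.84 to 95.9 CPM in the ACE sort, and Slc25a13 is the 1 member placed lower in the ACE-positive library by a call.

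Solute carriers that the symbol pattern leaves out were counted apart. Of 35 such genes tested, 3 were called higher and 1 lower in each sort. Slco2b1, an organic anion carrier, was called in both at 2.92, 25.3, 1.82 and 26.1 CPM, with folds of 8.66 (6.08 to 12.7) and 14.3 (8.09 to 27.9). Slc35d1, a nucleotide sugar carrier, was called in the CD74 sort at 4.26 and 10.4 CPM, and its length-centred log2 ratio there was 0.73. Of 13 carriers of the MFSD group tested, the ACE sort called 2 higher and 1 lower and the CD74 sort 2 higher and 0 lower, and Mfsd4a was called in both at 7.76, 18.7, 6.99 and 21.7 CPM. Mfsd7a lay lower in the ACE-positive library, at 37.6 and 17.0 CPM, and stood at 28.4 and 49.5 CPM in the CD74 sort.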

How the data were processed

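RNA of Cx3cr1-positive periosteal cells, sorted by ACE or by CD74, was extracted with Trizol and made into TruSeq libraries, per the labels. HISAT2 and GRCm38 are named in the submitters' processing notes. Which counter, strand setting, annotation and test were used is not given in the sources used here. For each sort the authors deposited 1 table per sort with a size-factor-normalised signal per library, as the column names say. Beside it, per the file headers, the authors give a fold (ratio), log2 fold, p-value and adjusted p-value. The CD74 columns were mapped by the name and header of their table, since the labels refer to it under another name.

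The design had assumed read counts. All deposited values (100%) were whole multiples of 1 step within 0.001 reads, so whole reads were recovered. Reads were scaled to CPM with TMM sizes from edgeR 4.0.16 in R 4.3.3. Ratios are log2 of CPM + 1, folds carry exact conditional binomial (Clopper-Pearson) 95% intervals, and the interval of the ratio of folds is a normal approximation on the log scale. All cover counting error only, since each group is 1 library. Reads carry no molecular identifiers, so duplicate reads could not be set apart and the intervals may be too narrow. With 1 library per group, edgeR and DESeq2 1.42.0 tests could not be fitted. Length centring used a running median over 501 genes of like deposited length. Promoters came from RefSeq on GRCm38.p6, and exon overlaps from GENCODE M21. Python 3.11.15 with pandas 2.3.3, scipy 1.17.1 and matplotlib 3.10.9 did the rest, after checks on simulated data. Alternatives were other scaling, pseudocounts, minimums, fold sizes and length centring. There were 0 other columns of per-library values.

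Members and lists were chosen with earlier results of these data known. Named were Slc12a2, every called member, the 2 members highest per length in each class, genes at the limits, the genes most like Slc12a2 and genes called in the lists. A few others were added after their values were seen. Of the genes taken by this rule, a few are not reported here.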

Additional observations from a re-analysis of the deposited data

Results flagged for a closer look

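Slc38a5, a glutamine carrier, lay in opposite directions in the 2 sorts. It drew the value 2.60 for the ACE log2 fold minus the CD74 log2 fold, with 2.92 CPM in the ACE-negative, 7.85 in the ACE-positive, 7.14 in the CD74-negative and 3.17 in the CD74-positive library. The counting interval of its fold excluded 1 in both sorts. The difference between the sorts was not tested, since each group is 1 library, and erythroid markers lay in the same directions.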

How the results depend on the processing

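With counts of reads on listed genes as library sizes, 23 members were called higher in each sort and 0 lower in the ACE sort, and the medians became 0.26 (ACE) and 0.38 (CD74), where the medians of all genes moved from -0.08 to 0.05 and from -0.03 to 0.15. The share of all calls that were higher moved from 52.3% to 67.2% (ACE) and from 54.0% to 74.8% (CD74) under that scaling, and to 65.4% and 62.3% when centred by length. Members called lower in the ACE sort numbered 2 at a pseudocount of 0.1, 0 at a pseudocount of 5 and 0 centred by length, and in the CD74 sort 1 at 0.1 and 1 centred by length. At a log2 ratio of at least 0.58, 37 were higher and 8 lower in the ACE sort and 39 and 9 in the CD74 sort. Outside that setting, the counts called higher ranged from 12 to 23 (ACE) and from 11 to 23 (CD74). Centring by length took the call from Slc8a1 and Slc25a13 in the ACE sort and from Slc12a7, Slc26a2, Slc37a1, Slc44a1, Slc6a6 and Slc7a11 in the CD74 sort. A pseudocount of 5 took it from Slc11a2, Slc13a3, Slc25a13, Slc38a5 and Slc38a6 in the ACE sort and from Slc13a3, Slc16a6, Slc37a1, Slc41a1 and Slc7a11 in the CD74 sort. A minimum deposited mean of 100 left out Slc13a3, Slc38a5, Slc38a6 and Slc6a8. Genes called higher in both sorts numbered 3 at a pseudocount of 5, 11 with plain totals and 25 at 0.58. Over the 28 called members, 284 of 304 values in the ACE sort and 282 of 304 in the CD74 sort kept their side of the call. No called value changed sign, and 1 uncalled value in each sort did under plain totals, Slc36a1 from -0.11 to 0.02 (ACE) and Slc4a1 from -0.09 to 0.09 (CD74). The authors' size factors and those of DESeq2 gave the same values. No paired analysis was possible because each group holds 1 library. Depth limits genes with few reads, such as Slc6a8 and Slc13a3, whose intervals are wide.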

Other observations

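A few other members had folds whose counting intervals excluded 1 in opposite directions in the 2 sorts, all of them smaller than a call. Slc29a1, a nucleoside carrier of the plasma membrane, was 1.67-fold higher in the ACE-positive library (1.48 to 1.89) and stood at 0.839 of the negative library in the CD74 sort (0.732 to 0.963). The lactate carrier Slc16a3 had folds of 1.13 and 0.740, Slc16a1 had 1.17 and 0.797, and the sugar efflux carrier Slc50a1 had 1.31 and 0.756. Slc25a12 and Slc38a10 lay the other way, with folds of 0.833 and 1.24 and of 0.880 and 1.24. These differences between the sorts were not tested.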
